A study of Triticum aestivum with 6 samples.

Results

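The genes described here are 9 wheat genes of primary carbon and nitrogen metabolism: 3 alcohol dehydrogenases, 3 glutamate decarboxylases and 3 fructose-bisphosphate aldolases. They are 9 of the 861 genes in the authors' deposited DESeq2 table. They were chosen by these enzyme names in the gene description, and so also selected on the authors' FDR (false discovery rate), which is under 0.05 for every gene in the table. The description had to belong to the gene that was measured. That condition removed 1 of the 10 matching entries, an antisense gene that overlaps an aldolase.

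Leaf messenger RNA was sequenced 7 days after germination in winter wheat (Triticum aestivum), breeding line SE15. One group of 3 samples came from seeds exposed to ultrasound before germination (30 kHz, 70 W, 5 minutes, 4 cm from the head). The other 3 samples came from untreated seeds. Each group began with 100 seeds of 13.6% water content, and all seedlings grew at 20 °C in the dark, so both groups share dark germination. No genetic change is named in the labels for either group.

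The authors' deposited table compares 2 groups that its header calls K1 and US1 and holds no value for a single library. The level of each gene in each sample, the sequencing depth and the spread between replicates are therefore unknown here, and no expression test was run. The header does not say which group was divided by which. Genes are therefore given a positive or negative side by the sign as deposited, where positive would mean higher after ultrasound only if US1 was the numerator. The header also does not say which libraries entered the comparison. The series text calls the 3 samples of each group independent biological samples without saying what was pooled or kept apart. The deposited p-values set each fold against a variation that the authors' model estimated, and that variation may be partly technical. The implied standard error (SE) given with each fold is the size of the fold on the log2 scale over the normal quantile that matches the deposited p-value. Intervals are 95% intervals from that SE.

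Alcohol dehydrogenase reduces acetaldehyde to ethanol and so returns NAD+ to glycolysis when respiration is short of oxygen. It is a classical low-oxygen enzyme of cereal seeds, roots and seedlings. Glutamate decarboxylase makes GABA (gamma-aminobutyric acid) from glutamate, the entry step of the GABA shunt, and the plant enzyme is known to respond to calcium-calmodulin and to acid pH. Fructose-bisphosphate aldolase splits a sugar bisphosphate into triose phosphates in glycolysis and runs in the other direction in gluconeogenesis. The plastid forms also serve the Calvin cycle.

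The 9 genes divided by enzyme. All 3 alcohol dehydrogenases and all 3 glutamate decarboxylases lay on the negative side, and all 3 aldolases on the positive side. In the authors' deposited table the median log2 fold change was -1.89 for the alcohol dehydrogenases (3.72-fold), -2.09 for the glutamate decarboxylases (4.27-fold) and 1.80 for the aldolases (3.49-fold). Across all 76618 tests implied by the FDR values, 1.12% were listed at an FDR under 0.05. The positive side took 0.576% of the tests and the negative side 0.548%. Because the rule took its genes from this table, their presence in it and their sides are a description, and nothing is read from the counts.

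**Figure D1:**
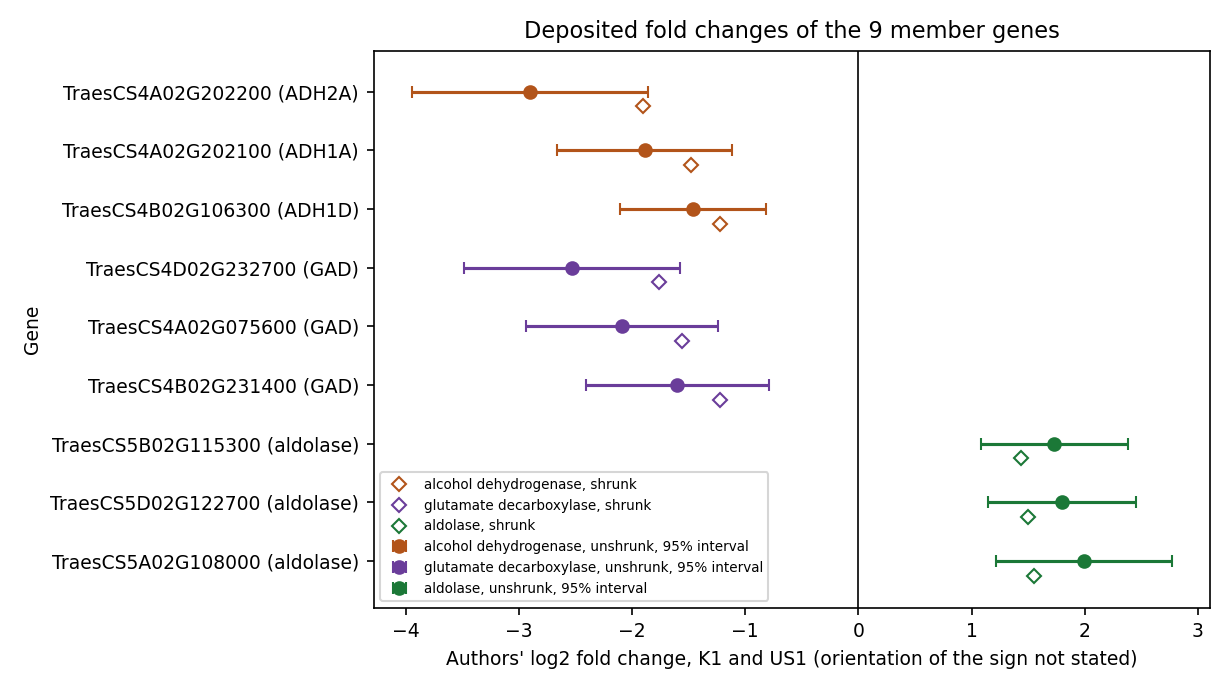
The authors' log2 fold change of each of the 9 genes (filled points) with the 95% interval from the implied SE (bars), and the authors' shrunk value (open diamonds). The 6 alcohol dehydrogenase and glutamate decarboxylase genes lie between -2.90 and -1.46, the 3 aldolases between 1.73 and 1.99, and no interval reaches 0, as the selection of significant genes requires.

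The alcohol dehydrogenases lay on group 4 chromosomes. ADH2A (TraesCS4A02G202200, chromosome 4A, 491914927 to 491917719, minus strand) had the largest fold of the 9 genes in the authors' deposited table, a log2 fold change of -2.90 (SE 0.53, interval -3.95 to -1.86, 7.48-fold). The authors' shrunk value for ADH2A, which pulls imprecise folds towards 0, was -1.90. Its DESeq2 adjusted p of 5.40e-05 was the lowest of the 9 genes, and by p-value it ranked 67 of the 861 listed. By shrunk size it ranked 18 of the 420 genes on the negative side of the authors' deposited table, against rank 73 by unshrunk size.

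ADH1A (TraesCS4A02G202100, 4A, 491715851 to 491719316, minus strand) is the adjacent gene number, and 195610 bp separate the annotated genes. Its log2 fold change in the authors' deposited table was -1.89 (SE 0.39, interval -2.66 to -1.12), a 3.72-fold difference with a DESeq2 adjusted p of 7.15e-04. The fold of ADH2A minus that of ADH1A was -1.01, and the combined SE was 0.66 if the errors are taken as independent. Every combined SE below rests on the same assumption, which was not tested. The intervals of ADH2A and ADH1A overlap.

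The third alcohol dehydrogenase, TraesCS4B02G106300, is described as ADH1D although the table places it on chromosome 4B (115556136 to 115560148, minus strand). In the authors' deposited table it had a log2 fold change of -1.46 (SE 0.33, interval -2.11 to -0.82), the smallest of the 9 in size, and a DESeq2 adjusted p of 0.00269. It was also among the more precise listed genes, since 85.4% of the 861 had a larger SE. The fold of ADH1D minus that of ADH2A was 1.44 with a combined SE of 0.62, and the intervals of ADH1D and ADH2A overlap. That gap is the widest within any of the enzyme groups, and was picked out as such. The table listed no gene described as an alcohol dehydrogenase on chromosome 4D, and unlisted genes are not analysed here.

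An undescribed gene next to ADH1D was listed on the same side. TraesCS4B02G106200 (115555055 to 115555964) lies on the same strand, 171 bp beyond the annotated 3′ end of ADH1D. The authors' deposited table puts it at a log2 fold change of -1.66 (SE 0.47), with a DESeq2 adjusted p of 0.0418. The fold of ADH1D minus that of this gene was 0.19, less than either SE.

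The glutamate decarboxylases were 1 gene each on 4A, 4B and 4D. TraesCS4D02G232700 (4D, 393635704 to 393637967, plus strand) had a log2 fold change of -2.53 in the authors' deposited table (SE 0.49, interval -3.49 to -1.58, 5.80-fold; DESeq2 adjusted p = 1.71e-04). TraesCS4A02G075600 (4A, 75213035 to 75215412, minus strand) followed in that table at -2.09 (SE 0.43, interval -2.94 to -1.24, 4.27-fold; DESeq2 adjusted p = 7.15e-04). The gene on 4B had the highest DESeq2 adjusted p of the 9.

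That gene, TraesCS4B02G231400 (4B, 483333116 to 483335523, minus strand), had a log2 fold change of -1.60 in the authors' deposited table (SE 0.41, interval -2.41 to -0.79, 3.03-fold). Its DESeq2 adjusted p of 0.0186 was the only one of the 9 above 0.01. It ranked 475 by p-value among the 861 listed genes, while the 4D gene ranked 90 and the 4A gene 150. The 4D fold minus the 4B fold was -0.94 with a combined SE of 0.64, and the 3 intervals overlap one another. No listed gene lay within 10 gene numbers of any glutamate decarboxylase.

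The aldolases, 1 gene each on 5A, 5B and 5D, were the most alike. TraesCS5A02G108000 (5A, 191091856 to 191093655, plus strand) had a log2 fold change of 1.99 in the authors' deposited table (SE 0.39, interval 1.22 to 2.77, 3.98-fold; DESeq2 adjusted p = 2.89e-04). TraesCS5D02G122700 (5D, 177675436 to 177677242, minus strand) had 1.80 in that table (SE 0.33, interval 1.15 to 2.45; DESeq2 adjusted p = 6.73e-05). TraesCS5B02G115300 (5B, 192348593 to 192350382, minus strand) had 1.73 (SE 0.33, interval 1.08 to 2.38, 3.31-fold; DESeq2 adjusted p = 1.71e-04), again in the authors' deposited table. The largest gap among the aldolases was 0.27 with a combined SE of 0.52, against 0.94 among the glutamate decarboxylases and 1.44 among the alcohol dehydrogenases. Those gaps are given as a description, and the differences between enzymes in spread were not tested.

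The annotated lengths of the aldolase genes were also close, at 1800 bp on 5A, 1790 bp on 5B and 1807 bp on 5D. The 5A and 5D genes carry the same UniProt protein record in their descriptions, and the 5B gene carries another, so the table cites 2 records for the 3 genes. The sources used here do not say how reads that match several copies were assigned. Values of copies that share sequence are uncertain for that reason, in all 3 enzyme groups.

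On 5D an antisense gene gave almost the same value as the aldolase. TraesCS5D02G122600 (177675769 to 177676923, plus strand) lies wholly within TraesCS5D02G122700 on the opposite strand, with an overlap of 1155 bp. Its log2 fold change in the authors' deposited table, 1.80 (SE 0.36; DESeq2 adjusted p = 2.98e-04), differed from that of the aldolase by -0.001 (aldolase minus antisense gene). The library protocol describes no strand marking and the counting of strands is not stated, so whether reads of the aldolase and of this antisense gene were separated is unknown, and both values are uncertain. The 5A and 5B aldolases overlapped no listed gene.

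**Figure D2:**
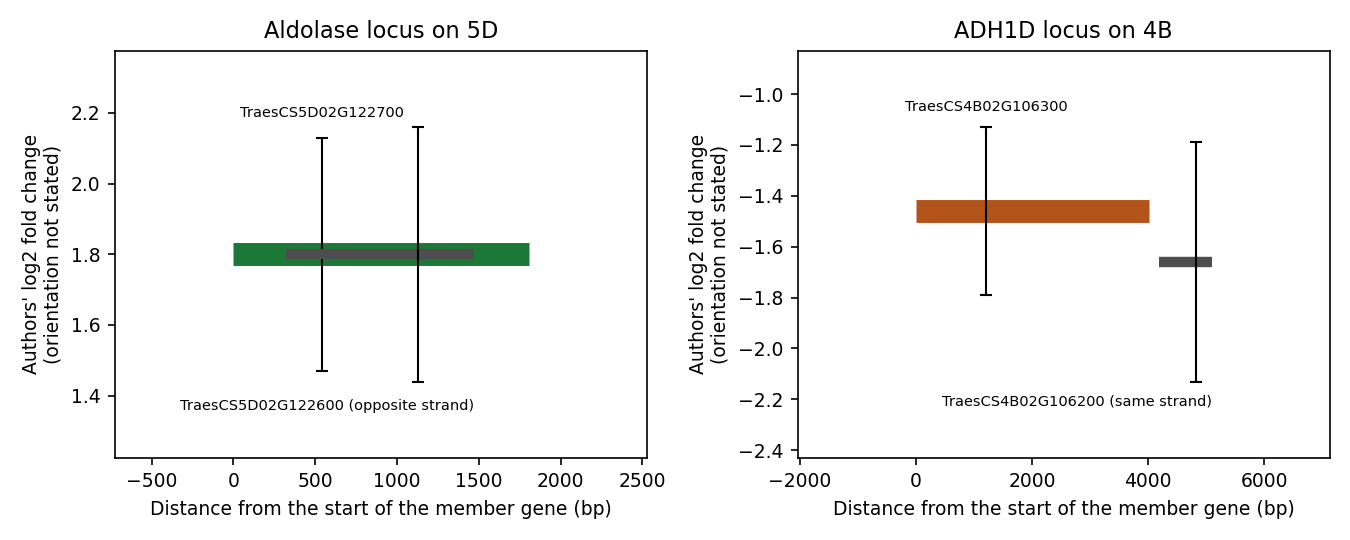
The authors' log2 fold change (vertical position; bars, 1 implied SE) of each member gene (wide coloured band) and its listed neighbour (narrow grey band), placed by distance in bp from the start of the member gene and drawn in its direction of transcription. On 5D the opposite-strand gene sits inside the aldolase at the same fold of 1.80, and on 4B the undescribed gene begins 171 bp beyond ADH1D at -1.66, against -1.46 for ADH1D.

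Set against all listed genes, the 9 had unshrunk folds and errors of middling size. The median absolute log2 fold change was 1.89 over the 9 genes and 1.81 over the 861 in the authors' deposited table. The median SE was 0.39 and 0.43 for the same genes, and 6 of the 9 lay below the median SE of the table. The largest folds were among the less precise. A larger SE than that of ADH2A was found in 28.9% of listed genes, and than that of the 4D glutamate decarboxylase in 36.8%. An FDR under 0.01 was reached by 8 of the 9 (88.9%), against 41.9% of all listed genes and 0.471% of all tests. The highest FDR among the 9 was 0.0186 and the highest in the table was 0.0499. As the 9 were taken from a selection on this FDR, these values are a description and say nothing on how reliable the genes are. The smallest absolute log2 fold change listed for any gene was 0.83.

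**Figure D3:**
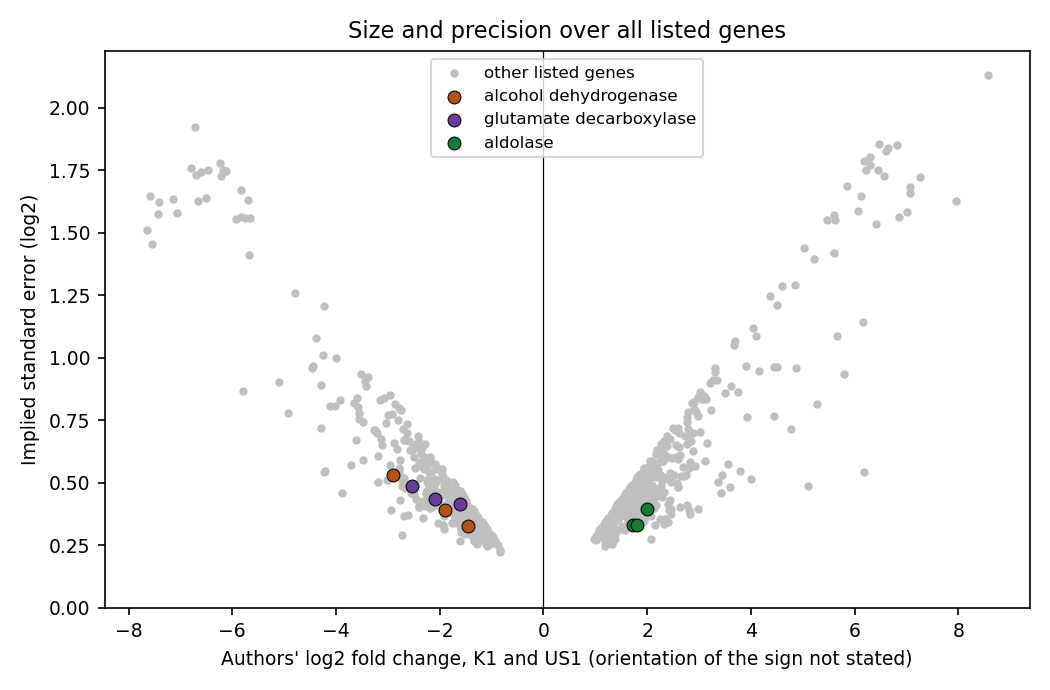
Implied SE against the authors' log2 fold change for all 861 listed genes (grey), with the 9 genes coloured by enzyme. The coloured points lie at SE values between 0.33 and 0.53, far below the imprecise folds at the upper left and right, where the SE reaches 2.13. The empty wedge around 0 is the selection on p-value.

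The authors' shrinkage kept between 65.3% (ADH2A) and 83.6% (ADH1D) of the log2 fold change of these genes. After it, the alcohol dehydrogenases lay between -1.90 and -1.22, the glutamate decarboxylases between -1.76 and -1.22, and the aldolases between 1.44 and 1.55, all from the authors' deposited table. On that scale the enzyme medians were closer in size, at 2.79-fold, 2.94-fold and 2.83-fold.

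Few other enzymes of the same pathways had a listed gene. Of 12 keywords for glycolytic enzymes, those of aldolase and phosphofructokinase found listed genes. The phosphofructokinase TraesCS1D02G346200, which makes the bisphosphate that aldolase splits, lay on the negative side at -1.19 (SE 0.34, DESeq2 adjusted p = 0.0444) in the authors' deposited table, opposite to the aldolases. The glycolysis keywords thus matched 3 positive genes, which are the aldolases themselves, and 1 negative gene. Their median log2 fold change of 1.76 mostly restates the aldolase values, and no side is read from it for glycolysis.

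The fermentation keywords matched the 3 alcohol dehydrogenases alone and found neither pyruvate decarboxylase, which supplies their acetaldehyde, nor lactate or aldehyde dehydrogenase. The GABA shunt keywords matched the 3 glutamate decarboxylases alone, with no GABA transaminase or succinate-semialdehyde dehydrogenase, the later steps of the shunt. The lists for sucrose and starch breakdown and for the citrate cycle matched 0 genes each. As 72% of the 861 listed genes had no description, these counts do not show that such genes were outside the selection.

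The keyword list for the low-oxygen response matched 1 gene, ethylene-responsive transcription factor 6 (TraesCS1B02G231500). It lay on the positive side at 2.61 (SE 0.70, DESeq2 adjusted p = 0.0262) in the authors' deposited table, opposite to the alcohol dehydrogenases. Its name alone does not place it among the ethylene response factors known for oxygen sensing. No haemoglobin, cysteine oxidase or alternative oxidase was matched.

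The Calvin cycle list matched 9 genes, all for the small chain of Rubisco, the carbon-fixing enzyme, and all on the positive side like the aldolases. Their median log2 fold change in the authors' deposited table was 1.79, with a range from 1.56 to 2.77, and the values of the 3 aldolases fall inside that range. The median of all 441 listed genes on the positive side was 1.90, so folds of this size were common there. The largest of these folds in the same table were those of TraesCS2D02G065400 (2.77, SE 0.41), TraesCS2A02G067100 (2.55, SE 0.65) and TraesCS2B02G078900 (2.32, SE 0.46). The descriptions do not say whether these aldolases are plastid or cytosolic forms. Phosphoribulokinase, transketolase and the bisphosphatases of the cycle were not matched.

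A pair of further dehydrogenases of sugar metabolism, chosen after their values were seen, lay on opposite sides. Glycerol-3-phosphate dehydrogenase (TraesCS1D02G312600), which like alcohol dehydrogenase can reoxidise NADH, was at -1.68 (SE 0.46, DESeq2 adjusted p = 0.0324) in the authors' deposited table. The 6-phosphogluconate dehydrogenase TraesCS1A02G357200, of the pentose phosphate pathway, was at 1.61 in that table (SE 0.42, DESeq2 adjusted p = 0.0187).

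**Figure D4:**
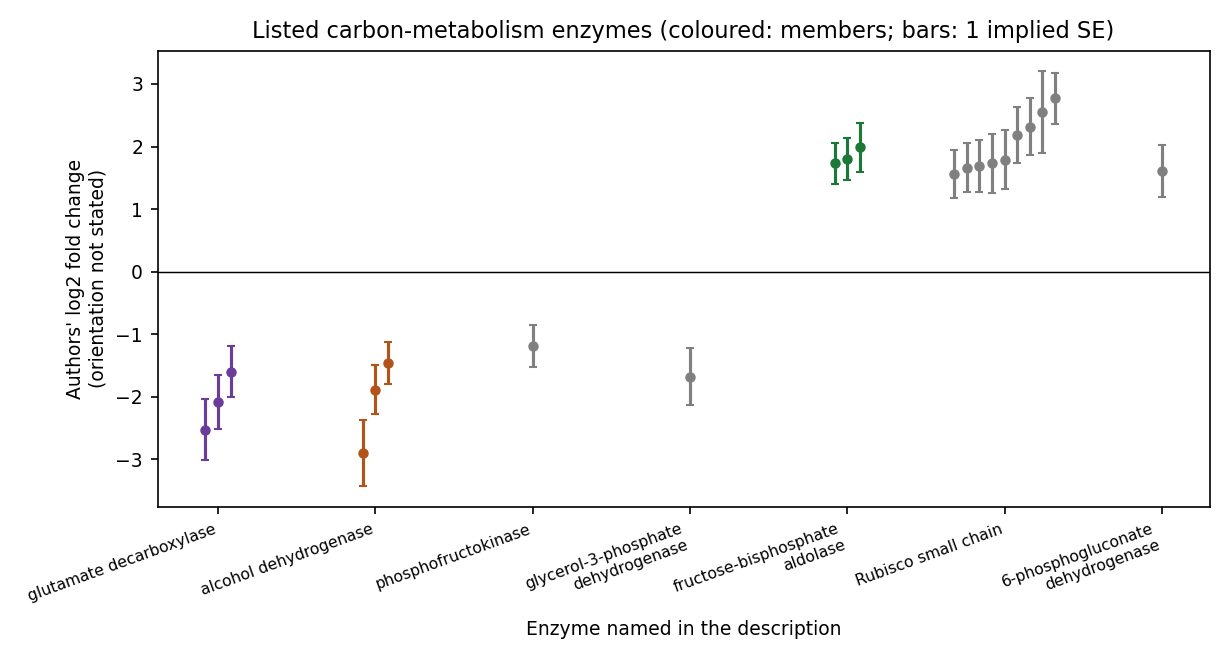
The authors' log2 fold change of every listed gene whose description names one of 7 carbon or GABA enzymes, with 1 implied SE; coloured points are the 9 genes and grey points the others. Glutamate decarboxylase, alcohol dehydrogenase, phosphofructokinase and glycerol-3-phosphate dehydrogenase lie below 0, and aldolase, the Rubisco small chain and 6-phosphogluconate dehydrogenase above it.

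Keyword lists set in advance as tissue markers matched listed genes as follows. The leaf mesophyll keywords, for the antenna proteins and the Rubisco small chain, matched 46 listed genes with a median log2 fold change of 2.43 in the authors' deposited table. All 46 lay on the positive side, like the aldolases and opposite to the alcohol dehydrogenases and glutamate decarboxylases. These keywords name photosynthesis genes. Whether their level follows the amount of mesophyll in dark-grown seedlings was not tested. Of all 861 listed genes, 441 were positive. The endosperm and embryo keywords matched 0 listed genes. The root keywords matched 1, a metal-nicotianamine transporter on the positive side at 2.77. The part of tissue makeup in the 9 fold changes was not tested, and in bulk leaf tissue fewer cells of a type and less RNA per cell cannot be told apart.

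The authors' second deposited table, a selection called ID with a Z-score for each of 52 genes, held 0 of the 9 genes. It listed 0.0433% of the tests its FDR values imply, and the sources used here do not name its test. Of the pathway lists, the Calvin cycle list had 6 genes in it, all of the Rubisco small chain, and the other pathway lists had 0. The leaf mesophyll keywords, which include the Rubisco small chain, matched 26 of its genes.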

How the data were processed

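Per the labels' protocols, mRNA was captured on poly-T beads, copied to cDNA with random hexamers and read on an Illumina NovaSeq instrument. The submitters' processing notes name DESeq2, STAR 2.7.10a, Trim Galore 0.6.7 and FastQC 0.11.9, with no role or order. The build and annotation behind the positions were not given in the sources used here. Positions stand as deposited. Per the file headers, the first table holds, for 861 probes, the log2 fold change of the authors' DESeq2 run, unshrunk and shrunk, with its p-value and FDR. The second holds a score deposited for 52 probes, a Z-score difference, with its p-value and FDR. No values per library were used, so the count and limma models fixed for such data were not run.

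With Python 3.11.15, pandas 2.3.3, numpy 2.4.6 and scipy 1.17.1, the implied SE was computed by assuming a Wald test and two-sided p-values. As a check, unshrunk over shrunk fold, less 1, was divided by the squared SE. A normal prior makes that constant, and its quartiles were 1.82 and 1.85. FDR times rank, divided by p, gave 76618 and 120099 tests behind the 2 tables. Both steps were tested on simulated data made with the same formulas. That checks the arithmetic, and cannot show that the deposited p-values are of this kind. Sample titles gave the groups. The genes and keyword lists were chosen with earlier results of these data known. All 9 genes are named, with the other genes of a list where it holds 5 or fewer and otherwise the 3 largest folds per side. Neighbours are listed genes within 10 gene numbers. The RefSeq table matched 0 of the 9 identifiers, so names come from the descriptions. Alternatives were an FDR under 0.01, a minimum log2 size of 1.5, descriptions of other genes, one probe per overlapping group and the shrunk fold.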

Additional observations from a re-analysis of the deposited data

How the results depend on the processing

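The alternatives filter or shrink the same deposited folds and cannot change a gene's side, so they bear on counts and sizes only. The 3 positive and 6 negative genes became 3 and 5 at an FDR under 0.01, where the 4B glutamate decarboxylase was lost, and 3 and 5 at a minimum log2 size of 1.5, where ADH1D was lost. They became 4 and 6 when the antisense gene on 5D was counted, and 3 and 6 with one probe per overlapping group. With the authors' shrunk log2 fold change the median of the alcohol dehydrogenases moved to -1.48 and that of the glutamate decarboxylases to -1.56, both by more than the median SE of the enzyme. The aldolase median moved by less. Of the 9 single genes, 5 moved by more than their own SE under shrinkage and 4 by less. No paired analysis was possible because the deposited tables hold no values per library, and for the same reason leaving out replicates, other normalizations and other filters on low counts were not run. Depth, expression level and replicate spread stay unknown here, and the sign of the fold cannot be assigned to a treatment.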
